A study of Mus musculus with 68 samples.

Results

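In single dopamine (DA) neurons of the ventral tegmental area (VTA), 151 zinc finger genes were counted in at least 34 of 68 cells. They were chosen by symbol (Zfp followed by a number) and by detection, a deposited count of 1 or more in at least 34 cells of both genotypes together. Of 377 such symbols among 36172 genes in the table, 355 had any count and 226 fell below the minimum. The cells were taken in brain slices of mice aged 12 months, 33 cells of 3xTg and 35 of WT. RNA was drawn through the pipette after the recording (Patch-seq), and each library is 1 neuron.

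3xTg mice were homozygous for the transgenes of the line, APP Swe and tau P301L among them, and model amyloid and tau pathology. WT mice carried none of these and were kept as a line on the same kind of hybrid background, and both sexes were used. The transgenes and other differences between the lines cannot be told apart. Which mouse gave which cell is not in the labels. The cells of a genotype therefore count as 1 sample, genotypes are compared without a test, and intervals cover the counting of reads or of cells only, not the spread between mice. Th, Slc6a3 and Slc18a2 were counted in all 68 cells, which the study had kept for being positive for these DA neuron markers. Pvalb, Tmem119, P2ry12 and Aldh1l1, markers of other cell types by which the study left out cells, had no count in 28 of the 33 3xTg cells and 30 of the 35 WT cells. Cells are numbered in the labels, and the numbers fall into stretches that hold cells of 1 genotype, with some numbers missing, here called runs. WT has the runs 1 to 22, 57 to 74 and 94 to 96, and 3xTg has 24 to 55 and 76 to 92. The sources do not say what a run is. In the headers of all 68 cells the label number and a second number were the row-wise and the column-wise count of 1 grid of 8 by 12 positions.

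C2H2 zinc finger genes form the largest family of transcription factors in mammals. Each finger is a short fold in which a pair of cysteines and a pair of histidines hold a zinc ion, and fingers in a row read DNA. Many members also carry a KRAB box at the start of the protein. The box recruits Trim28 (KAP1), which brings the histone methyltransferase Setdb1 and heterochromatin proteins and silences the bound DNA, often a transposable element. The genes lie in clusters that grew by duplication, so close copies share sequence. Some Zfp symbols name other proteins, such as the CCCH fingers of the Zfp36 family, which bind messenger RNA and promote its decay.

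Finger sequences show what the symbols hold. The coding sequence of the first finger of 4 members, read from GENCODE M21 transcripts (GRCm38, the assembly of mm10), is printed here because these members stand for the gene set apart below, its nearest neighbour, a member higher in 3xTg and a finger of another kind. Capitals mark the codons of the cysteines and histidines that hold the zinc ion.
Zfp382: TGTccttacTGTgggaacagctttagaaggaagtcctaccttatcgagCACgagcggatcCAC
Zfp260: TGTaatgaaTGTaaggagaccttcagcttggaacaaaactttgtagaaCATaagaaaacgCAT
Zfp512: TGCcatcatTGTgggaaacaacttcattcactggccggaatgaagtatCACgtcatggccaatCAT
Zfp36l3: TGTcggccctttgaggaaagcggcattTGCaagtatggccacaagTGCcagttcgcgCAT
The Zfp382 finger lies in exon 5 of 5 at chr7:30133904-30133966 on the plus strand, and the Zfp260 finger in exon 3 of 3 at chr7:30104749-30104811, also on the plus strand. The Zfp512 finger lies in exon 7 of 14 at chr5:31468166-31468231 (plus strand), and the Zfp36l3 finger in exon 1 of 1 at chrX:53775805-53775864 (minus strand). All 4 stretches are protein-coding.

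Most of the 151 members were KRAB genes. Of 150 with a GENCODE coding sequence, 99 held a KRAB A-box pattern in the translated protein, a description that can miss diverged boxes. The median number of C2H2 fingers was 10 and the largest was 33, in Zfp462, a chromatin regulator. In 5 members no C2H2 pattern was found, Zfp36l3 among them. Members lay on nearly every chromosome, with 27 on chromosome 17 and 26 on chromosome 7. Promoters of 129 members were matched to RefSeq (GRCm38.p6, 250 bases before to 50 after the start). On either strand, AANATGGC, the core that the factor YY1 binds, stood in 17.8% of them and in 6.22% of all 27025 promoters. CCAAT stood in 49.6% against 37.8%, and TATAAA in 6.98% against 14.1%. The median number of CpG sites was 12 against 7. These letters describe the windows and are not measured binding. The background holds all promoters, also those of genes with no count here. A member's window was the one nearest its annotated start, and in the background each gene's window was the lowest in coordinate. The part of these choices in the differences was not tested.

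At the detection limit, 7 members were counted in exactly 34 cells: Zfp672, Zfp52, Zfp53, Zfp622, Zfp553, Zfp119a and Zfp820. Just outside it, in 33 cells, were Zfp365, Zfp664, Zfp691 and Zfp697. The members at the limit split between the genotypes in different ways, from 17 3xTg and 17 WT cells for Zfp672 and Zfp553 to 25 and 9 for Zfp820. Every member was counted in at least 17 of the 33 3xTg cells, while 31 members (20.5%) were counted in fewer than 18 of the 35 WT cells. Of all 7304 genes, 13.7% fell below 18 WT cells and 1.25% below 17 3xTg cells. At the other end, 25 members (16.6%) were counted in all 68 cells, against 9.78% of the 7304 genes that passed the same minimum.

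The number of members counted varied between cells, around an average that the detection minimum helps to set. A 3xTg cell had a count for 76 to 147 members (median 128), and a WT cell for 68 to 141 (median 112). The ranges overlapped over most of their length. The number followed the total number of genes counted in a cell (Pearson r = 0.953 across 68 cells, given as a description, since both numbers share a cell's depth). Genes per cell had a median of 8511 in 3xTg and 7476 in WT, and 5233 in WT 1 to 22 against 8441 in WT 57 to 74. As a share of all genes counted in a cell, the members had a median of 1.47% in 3xTg and 1.61% in WT. After every cell was thinned to 700471 counts, which left 31 3xTg and 30 WT cells, the medians were 123 and 107.5 members.

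All members together held 251484 counts in 3xTg and 262085 in WT. Scaled to 1000000 counts in each genotype (CPM), these were 6850 (95% Poisson interval 6823 to 6877) and 7703 (7674 to 7733), a log2 ratio of 3xTg over WT of −0.17. The spread between cells was far wider than these intervals, with 3xTg cells between 3112 and 15927 CPM (median 6057) and WT cells between 2992 and 17206 (median 6757), and the genotypes overlapped. The ratio also turned with the cells compared, 0.07 in 3xTg 24 to 55 over WT 1 to 22 and −0.39 in 3xTg 76 to 92 over WT 57 to 74.

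Gene by gene, 55 members had a higher summed CPM in 3xTg and 96 a lower one, with a median log2 ratio of −0.23. Over all 7304 genes the median was −0.05, and 46.8% lay above 0, where 36.4% of the members did. By 2-fold or more, 13 members (8.61%) were higher in 3xTg, where 4.57% of all genes were, and 11 (7.28%) were lower, where 6.20% were. The 127 other members stayed within 2-fold. Of the 13 higher members, 9 were counted in fewer than 18 of the 35 WT cells and so passed the detection minimum through the 3xTg cells, where a higher share is partly set by the minimum. Of the 334 genes higher by 2-fold, 157 passed in this way, and of the 11 lower members 0 did. The counts of 1 cell weighed heavily in several: over 25% of the counts lay in 1 cell for 7 of the 13 and 4 of the 11, and for 8 of the 127 others, 12.6% of the members where 4.92% of all genes were so. With the 1 cell that held the most counts of a gene left out, an alternative chosen after seeing the data, 4 of the 13 stayed past 2-fold (Zfp820, Zfp512, Zfp788 and Zfp119a) and 5 of the 11 (Zfp382, Zfp229, Zfp599, Zfp266 and Zfp322a). Of all genes past 2-fold, 50.9% of the higher and 39.1% of the lower stayed. Zfp266, Zfp229 and Zfp788 are named after their values were seen.

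**Figure D1:**
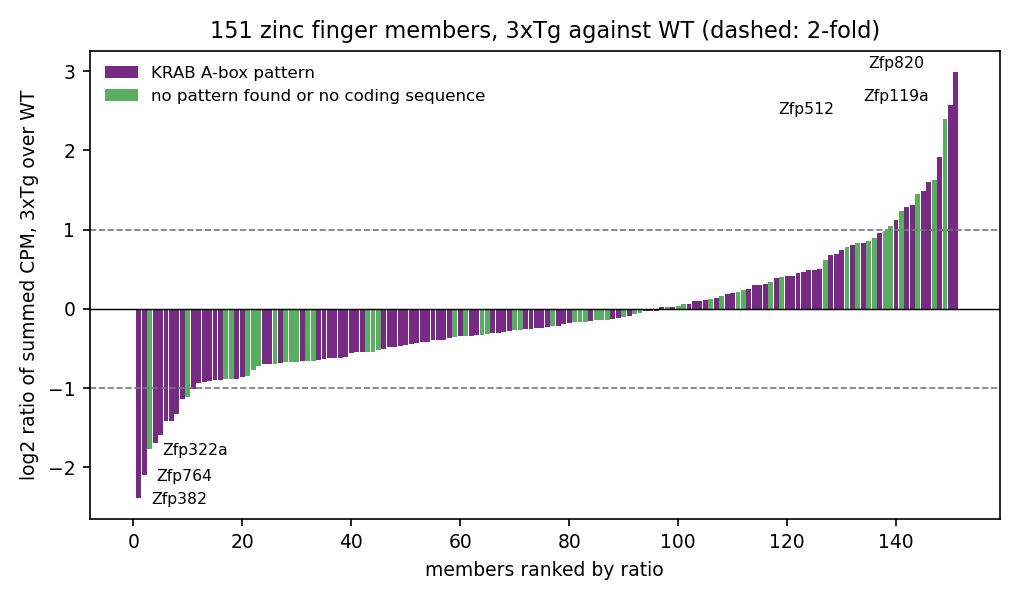
Log2 ratio of summed CPM, 3xTg over WT, for 151 members ranked from lowest to highest, with dashed lines at 2-fold; purple bars are members with a KRAB A-box pattern. Zfp382 has the lowest value, −2.38, and Zfp820 the highest, 2.99.

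Zfp382 stood lowest of the 151. It is a KRAB zinc finger gene with 9 fingers in a protein of 579 residues, on chromosome 7 at 30121948 to 30135032 (mm10, plus strand). In WT cells its count ranged from 0 to 94.4 with a median of 17, and in 3xTg cells from 0 to 27.6 with a median of 2.25. The genotypes overlapped, but 12 of the 35 WT cells lay above the highest 3xTg cell in CPM, and 3 of the 33 3xTg cells lay above the WT median. Summed over cells, the 157 counts in 3xTg were 4.28 CPM (3.63 to 5.00) and the 758 in WT were 22.3 CPM (20.7 to 23.9). The log2 ratio was −2.38 (counting interval −2.64 to −2.13), or 5.21-fold more in WT, and −2.24 without the cell that held the most counts. By this ratio it ranked 32 of all 7304 genes, counted from the lowest. The gene was singled out for this difference, so its values are a description.

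The share of cells with Zfp382 differed as well. It was counted in 20 of 33 3xTg cells (60.6%, exact Clopper-Pearson 95% interval 42.1 to 77.1%) and in 34 of 35 WT cells (97.1%, 85.1 to 99.9%). The difference of −36.5 percentage points was the lowest of all 7304 genes, and the next lowest member, Zfp74, had −19.6. A share lower in 3xTg by 20 points or more occurred in 1 member, Zfp382, and in 0.411% of all genes. With a minimum of 10 counts, 6 3xTg and 25 WT cells remained. After thinning, the shares were 58.1% and 93.3%. Of the 13 3xTg cells without a count of 1, 11 were at 0 and 2 held a fraction of a count.

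Each run of WT cells lay above each run of 3xTg cells in summed CPM of Zfp382. It was 29.3 in WT 1 to 22, 16.5 in WT 57 to 74 and 9.35 in the 3 cells WT 94 to 96, against 4.67 in 3xTg 24 to 55 and 3.71 in 3xTg 76 to 92. The lowest WT value rested on 24 counts (Poisson interval 15.4 to 35.7). All 17 and all 15 cells of the first WT runs had a count, against 12 of 21 and 8 of 12 cells of the 3xTg runs. In the first pair of runs the log2 ratio was −2.65 and in the second −2.15. In the 28 and 30 cells with no count of Pvalb, Tmem119, P2ry12 or Aldh1l1 it was −2.06, so the difference was smaller there but of the same direction. These cells are not free of other cell types' markers. Over all cells, Gad2 was counted in 33 3xTg and 35 WT cells, Mbp in 32 and 35, and Aldh1l1 in 0 and 0.

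**Figure D2:**
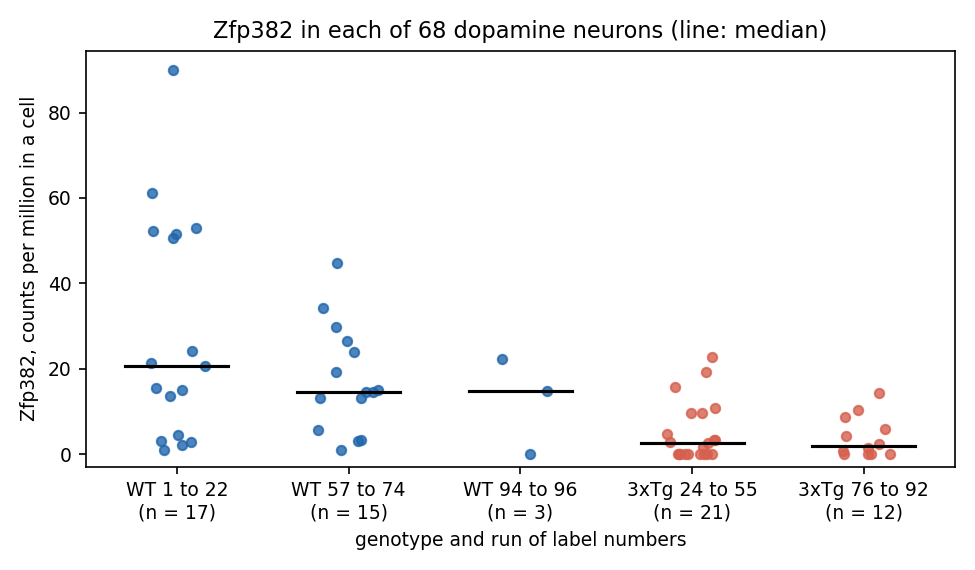
Zfp382 in CPM for each of 68 neurons by genotype and run of label numbers; each point is 1 cell and lines are medians. All 17 cells of WT 1 to 22 and all 15 of WT 57 to 74 have a count, and the 3xTg medians lie near the axis.

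The promoter of Zfp382 is rich in CpG sites, unlike that of Zfp260 beside it. It is printed as the window over the start of Zfp382, with CG in capitals (RefSeq, GRCm38.p6, chr7:30121682-30121981, plus strand).
Zfp382 promoter: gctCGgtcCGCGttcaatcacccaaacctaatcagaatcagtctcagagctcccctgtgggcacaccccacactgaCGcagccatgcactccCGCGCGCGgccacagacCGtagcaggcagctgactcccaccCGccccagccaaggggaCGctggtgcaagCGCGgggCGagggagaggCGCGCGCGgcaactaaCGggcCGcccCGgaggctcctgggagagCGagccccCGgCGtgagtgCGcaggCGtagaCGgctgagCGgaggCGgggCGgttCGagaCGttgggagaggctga
It holds 32 CpG sites, against 5 in the window of Zfp260, and a GC box (GGGCGG, found in 41.9% of member promoters and 35.6% of all). No DNA methylation or binding was measured in these cells.

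The genes around Zfp382 were compared with it. Within 500 kb, 18 other genes were counted in at least 34 cells, and their log2 ratios ran from −0.65 to 1.12 with 10 above 0 and the others below it. By 2-fold 2 were higher, Zfp84 and Capns1 (1.01, named after its value was seen), and 0 lower, where 4.57% and 6.20% of all genes were, so 0 of 18 says little. The 5 neighbouring members were Zfp84 (1.12), Zfp30 (0.50), Zfp74 (0.11), Zfp568 (0.83) and Zfp260 (−0.07). Zfp84 and Zfp568 stayed above 0 in both pairs of runs, but Zfp30 was at 2.87 and −1.44 and Zfp260 at 0.32 and −0.46. Without the cell with the most counts, Zfp30 was at −0.06 and Zfp74 at −0.29. Zfp568, known for silencing a placental transcript of Igf2, was counted in 19 3xTg and 21 WT cells. Zfp260, 14.3 kb away, was counted in 22 3xTg cells, 0 to 282 counts with a median of 29, and in 14 WT cells, 0 to 357 with a median of 0. The genotypes overlapped in it, and a larger share of cells in 3xTg went with a near equal sum. Below the minimum, Zfp146, 26.2 kb to the other side and counted in 4 3xTg and 8 WT cells, had 135 and 520 counts. Neighbours below the minimum went both ways. Zfp940 had 552 and 1047 counts (13 3xTg and 9 WT cells) and Zfp383 915 and 80 (5 and 3 cells). Zfp146, Zfp940 and Zfp383 are named after their values were seen. No other GENCODE gene overlaps Zfp382, and 1.01% of the 31-base stretches of its transcript occur in another gene's transcript.

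**Figure D3:**
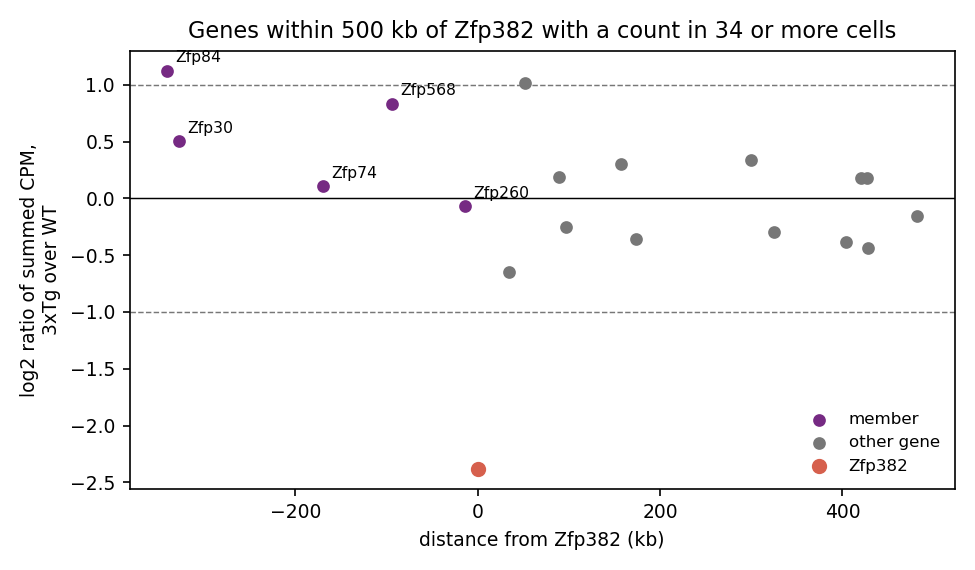
Log2 ratio of summed CPM against distance from Zfp382 in kb for genes within 500 kb that were counted in 34 or more cells, members in purple and other genes in grey. Zfp382 lies at −2.38 and its 18 neighbours between −0.65 and 1.12.

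Other members lower in 3xTg rested more on cells with high counts. Zfp322a, without a KRAB pattern, had 1070 counts in 3xTg and 3370 in WT (log2 ratio −1.76), but similar shares of cells, 30 of 33 in 3xTg and 33 of 35 in WT. A 3xTg cell had up to 120.4 counts (median 19.2) and a WT cell up to 1359 (median 25.7), each with cells at 0, and 30.6% of all its counts were in 1 WT cell. The medians were thus close, and without the highest WT cell the ratio was −1.07. Zfp599, a KRAB gene, had 260 and 645 counts (−1.42), with medians of 5.50 and 11.3 and highest values of 27.5 and 119.9, in 23 3xTg and 28 WT cells. Its ratio was −1.49 in both pairs of runs. Zfp953 (−1.41), Zfp169 (−1.14) and Zfp931 (−1.01) also had lower shares in 3xTg. Zfp953 was at −0.32 in the first pair of runs and −2.35 in the second. In the second pair of runs Zfp169 was at 0.50 and Zfp931 at 0.06, and 66.2% of the 31-base stretches of Zfp931 are shared with other genes. Zfp764 had the second lowest ratio, −2.09, yet it was seen in more cells of 3xTg (23) than of WT (18), with 44.02% of its counts in 1 WT cell and 47.9% of its stretches shared. Without that cell it was at −0.98. Zfp953, Zfp169 and Zfp931 were at −0.76, −0.74 and −0.63 without the cell with the most counts.

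Zfp820, a KRAB gene of 12 fingers in the chromosome 17 cluster, stood highest. Counts per 3xTg cell lay between 0 and 135.7 (median 4.0), and per WT cell between 0 and 7.5 (median 0). Sums were 343 and 40, or 9.34 CPM (8.38 to 10.4) and 1.18 CPM (0.84 to 1.60), a log2 ratio of 2.99. It was counted in 25 of 33 3xTg cells (75.8%, 57.7 to 88.9%) and in 9 of 35 WT cells (25.7%, 12.5 to 43.3%). A cell of 3xTg held 35.5% of all its counts. The genotypes overlapped at low counts, and the ratio was 3.95 and 2.40 in the pairs of runs. Over all cells without that 1 cell it was 2.29.

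Zfp512, a nuclear protein with few fingers and no KRAB pattern, had the lowest share of counts in its top cell among the 13 members higher by 2-fold, 7.74%. Counts lay between 0 and 331.7 in 3xTg cells (median 103.2) and between 0 and 202.3 in WT cells (median 0). Sums of 3652 and 640 were 99.5 CPM (96.3 to 102.8) and 18.8 CPM (17.4 to 20.3), a log2 ratio of 2.40. It was counted in 25 of 33 3xTg cells and 13 of 35 WT cells, 77.4% and 36.7% after thinning. In runs it was counted in 13 of 21 and 12 of 12 3xTg cells and in 4 of 17, 9 of 15 and 0 of 3 WT cells. The 12 cells of 3xTg 76 to 92 lay between 71.9 and 226.8 counts, and that run also had the most genes per cell, with a median of 9308. The part of depth and capture in these shares was not tested beyond thinning.

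Zfp51, Zfp119a, Zfp553 and Zfp963 were higher in 3xTg with most of their counts in few cells. Zfp51, a KRAB gene of the chromosome 17 cluster, had 968 and 237 counts (1.92), in 24 3xTg and 14 WT cells, and 47.4% of them lay in 1 3xTg cell. In the second pair of runs it was at −0.04. For Zfp119a (2.58), Zfp553 (1.63) and Zfp963 (1.61), 54.96%, 56.6% and 39.6% of the counts lay in 1 cell, each a 3xTg cell. Without that cell they were at 1.16, −0.24 and 0.63, and Zfp51 was at 0.67. Zfp119a was at 3.60 in the first pair of runs and 0.40 in the second, Zfp553 at 2.10 and −3.57, and Zfp963 at −0.05 and 2.58. Zfp553 was counted in 17 cells of each genotype and Zfp963 in 19 of each.

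A count was seen in a larger share of 3xTg cells for 84 members, in a smaller share for 42 and in equal shares for 25, all of these in every cell. Of all 7304 genes these were 5079, 1511 and 714. The median difference was 1.99 percentage points, against 6.15 for all 7304 genes, counted in the same cells. A share higher in 3xTg by 20 points or more occurred in 22 members (14.6%), where 14.9% of all genes had it. Of the 22, 20 had fewer than 18 WT cells and passed the minimum through 3xTg, Zfp820 (50.0 points), Zfp512 (38.6) and Zfp51 (32.7) among them, so these differences are a description. After thinning, the median differences were 1.08 and 6.67 points.

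**Figure D4:**
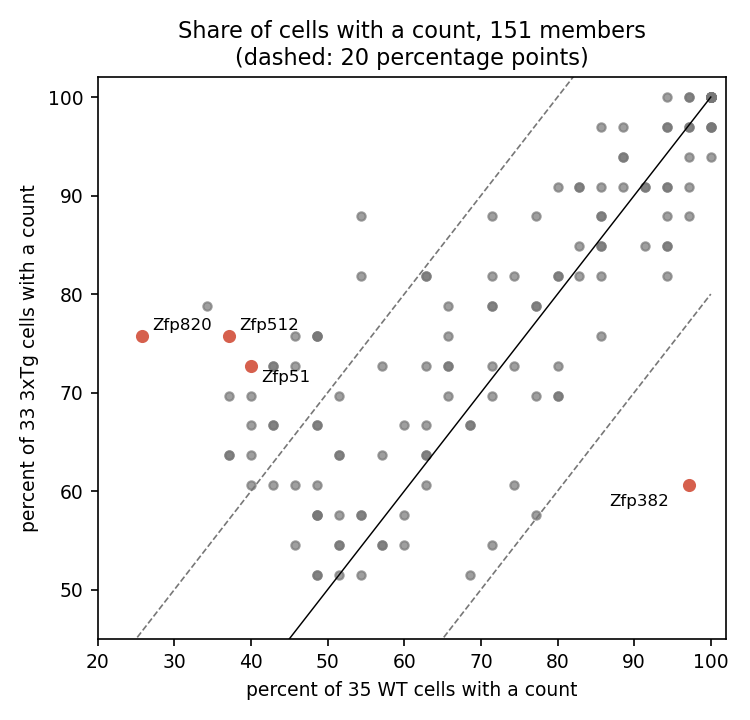
Percent of 33 3xTg cells against percent of 35 WT cells with a count for 151 members, with dashed lines at a difference of 20 percentage points. Zfp382 alone lies below the lower line, at 60.6% and 97.1%, and Zfp820 lies farthest above, at 75.8% and 25.7%.

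The pairs of runs, which have no cell in common, tell how far a ratio holds in other cells. By 2-fold either way, 43 members (28.5%) passed in 3xTg 24 to 55 over WT 1 to 22, where 22.7% of all genes did, and 48 (31.8%) in 3xTg 76 to 92 over WT 57 to 74, where 22.9% did. Within 1 genotype, 51 members (33.8%, all genes 27.6%) passed in WT 57 to 74 over WT 1 to 22 and 32 (21.2%, all genes 12.4%) in 3xTg 76 to 92 over 3xTg 24 to 55. The share of members past 2-fold was thus higher between the WT runs than in either comparison of genotypes, and lower between the 3xTg runs. The sign was the same in both pairs for 80 members (52.98%), near the 50.5% of all genes, and across the members the ratios of the pairs had a Pearson r of 0.004.

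Past 2-fold in the same direction in both pairs were 9 members (5.96%), where 3.87% of all genes were. Lower in 3xTg were Zfp382, Zfp764, Zfp322a, Zfp229, Zfp599 and Zfp92, and higher were Zfp820, Zfp512 and Zfp788. Of these, Zfp764 and Zfp92 are also named after their values were seen. Zfp820, Zfp512 and Zfp788, counted in 9, 13 and 17 of the 35 WT cells, passed the detection minimum through the 3xTg cells. Zfp382 was singled out for its difference. For these 4 the passing of both pairs is a description. With the cell that held the most counts of a gene left out, 5 of the 9 still passed in both pairs: Zfp382, Zfp322a, Zfp229, Zfp820 and Zfp512. In the first pair Zfp92 was then at 0.08, Zfp764 at 3.38 and Zfp788 at 0.72, and in the second Zfp599 was at −0.97. Zfp92 was counted in all 33 and 35 cells, and its cell WT 5 had 713.7 CPM against medians of 13.1 in 3xTg and 17.5 in WT. Over all cells its ratio was −1.32, and −0.64 without that cell. WT 5 also held 32.9% of the counts of the astrocyte marker list, and the part of this in its Zfp92 count was not tested. Zfp229 was counted in 26 3xTg and 27 WT cells. Zfp788, a KRAB gene of 23 fingers, had 2006 and 663 counts, in 25 3xTg and 17 WT cells, and 11.4% of the counts in its top cell.

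**Figure D5:**
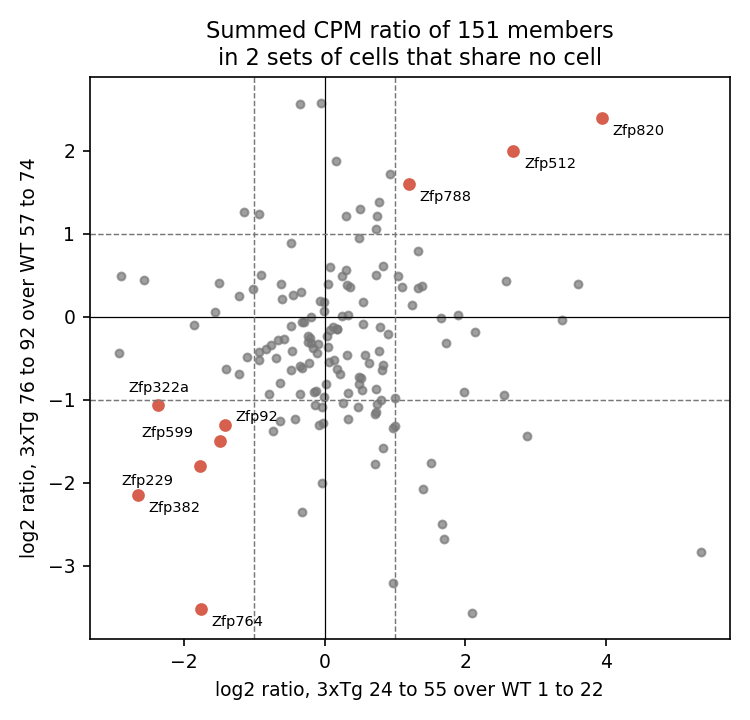
Log2 ratio of summed CPM of 151 members in 3xTg 76 to 92 over WT 57 to 74 against 3xTg 24 to 55 over WT 1 to 22, with dashed lines at 2-fold. The 9 members in orange pass 2-fold the same way in both, and Pearson's r over all members is 0.004.

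In both classes, with and without a KRAB pattern, most members were below 0. Of 99 KRAB members, 35 were above 0 with a median of −0.26, 8 were higher by 2-fold and 9 lower. Of 51 members without the pattern, 20 were above 0 with a median of −0.16, 5 were higher and 2 lower. Of all 7304 genes 46.8% were above 0, 4.57% higher and 6.20% lower. Sequence was shared more among KRAB members, with a median of 8.05% of 31-base stretches against 0.49%. In the 37 members with 20% or more of their stretches shared, where a read may be split between copies, the median ratio was −0.24, and in the 113 others −0.22. Of a member's counts above 0, a median of 54.3% were not whole numbers, with a tolerance of 0.001.

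Members counted in all 68 cells had ratios from −1.32 to 0.06. These 25 had a median of −0.40, 1 was above 0 and 1, Zfp92, was lower by 2-fold. The 126 others had a median of −0.15 and held all 13 members higher by 2-fold. Of all 7304 genes 46.8% were above 0, 4.57% higher and 6.20% lower. No value is given for the 714 genes counted in every cell, so the low ratios are not read as a trait of the members. In the first group the top cell held a median of 5.53% of a member's counts and in the second 14.1%. Summed counts had medians of 5634 and 1670. The most counted members were Zfp706 (30450 counts), Zfp488 (23421), Zfp113 (22186), Zfp277 (19594) and Zfp932 (17111). The first 4 also led the members counted in every cell, while Zfp932 was counted in 32 3xTg and 30 WT cells. These sums are not scaled by length, and no order of levels between genes is read from them. The transcripts used for Zfp113 (1320 bases) and Zfp932 (1581 bases) are among 4 that hold coding sequence only, where the median transcript had 3262 bases, so counts per kb are not compared. Zfp706, with 44.1% of its stretches shared, and Zfp932, with 73.8%, may hold reads of other genes.

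Among these leaders Zfp113, a KRAB gene, differed most between genotypes. Counts lay between 17.8 and 755.5 in 3xTg cells (median 218.7) and between 23.5 and 790.9 in WT cells (median 327.4). The genotypes overlapped over most of the range. Its log2 ratio was −0.55, with −0.12 in the first pair of runs and −0.89 in the second. Zfp488, known for its role in oligodendrocyte differentiation, was at −0.22, with medians of 186.1 and 173.2 counts. Its ratio was 0.53 in the first pair of runs and −0.89 in the second. Mbp, a myelin gene of oligodendrocytes, was found in 32 cells of 3xTg and 35 of WT, with 2802 and 8757 counts (log2 ratio −1.75). The part of oligodendrocyte RNA in the counts of Zfp488 was not tested.

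Zfp536 and Zfp36l3 had a pattern of their own. Every count of these members was a whole number, within 0.001. Zfp536, a repressor of neuronal differentiation, was counted in all 68 cells with 1 to 16 counts in 3xTg (median 7.0) and 1 to 13 in WT (median 6.0), 472 in all. Zfp36l3 had a count in 30 cells of 3xTg and 31 of WT, with 0 to 20 and 0 to 21 counts and medians of 7.0 and 6.0. Levels were low, and the genotypes overlapped at log2 ratios of −0.13 and 0.13. By run of WT cells, Zfp536 was at 7.91, 6.90 and 1.56 CPM and Zfp36l3 at 8.20, 4.99 and 1.95, the last of each from the 3 cells WT 94 to 96 with 4 and 5 counts. In the 3xTg runs they were at 6.70 and 5.90, and at 8.14 and 5.24. Zfp536 was named after its values were seen.

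Some members act on RNA or in cell division. Of the list of RNA and ribosome genes, 4 were members and none passed 2-fold, where 4.57% of all genes were higher and 6.20% lower, so 0 of 4 says little. Zfp106, an RNA-binding protein that motor neurons need, was at 0.98 with 2171 and 1021 counts, and at 1.72 and −0.31 in the pairs of runs. Zfp622, which helps to mature the large ribosomal subunit, was at 0.85, and Zfp326, which links splicing to transcription, at −0.66. In the pairs of runs Zfp622 was at 1.10 and 0.36 and Zfp326 at 0.73 and −1.15. Zfp207, which binds spindle microtubules, was at −0.32 with 0 to 709.7 counts (median 151.4) in 3xTg and 0 to 865.8 (median 160.3) in WT.

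Of the list of chromatin and transcription genes without a KRAB box, 11 were members, of which 4 were above 0 with a median of −0.27, 2 were higher by 2-fold (Zfp512 and Zfp462) and none was lower, where 4.57% and 6.20% of all genes were. Zfp462 was at 1.24, and at 0.99 without the cell with the most counts. Zfp148, which binds GC-rich promoters, was at −0.67 with counts of 0 to 185.5 in 3xTg and 0 to 299.0 in WT. Zfp410, an activator of the Chd4 gene, was at −0.27 in 30 3xTg and 32 WT cells, with 0.17 in the first pair of runs and −0.14 in the second. Chd4, a remodelling ATPase, was at 0.57, with 1.19 and −0.58. Zfp292 was at 0.24, and at −0.17 without the cell with the most counts. Each of these overlapped between genotypes.

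The silencing partners of KRAB proteins were also listed. Of 20 genes listed, 19 were found, and 10 of these were counted in at least 34 cells. Their median log2 ratio was 0.18, with 6 above 0, 1 higher by 2-fold (Chd3, 1.25) and none lower, where 4.57% and 6.20% of all genes were. Trim28, to which the KRAB box binds, had 2234 and 2376 counts (−0.20), in 25 3xTg and 17 WT cells. Cbx5, which encodes HP1 alpha, was counted in all cells and was at 0.47. Cbx3, which encodes HP1 gamma, was at −0.04. Chd3 was at 3.77 in the first pair of runs and −0.03 in the second, and was counted in 25 3xTg and 13 WT cells. Chd3 and Trim28 were thus counted in fewer than 18 of the 35 WT cells. They passed the detection minimum through the 3xTg cells, where a higher share is partly set by the minimum. Below the minimum, Smarcad1 was at −1.76 (13 3xTg and 14 WT cells) and Dnmt1 at 1.41 (9 and 5).

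Markers of other cell types were found in both genotypes. Their lists had a median summed CPM of 34.9 in 3xTg and 42.98 in WT for oligodendrocytes (5.66 to 583 and 7.94 to 2540), 29.6 and 23.7 for microglia (0 to 4646 and 0 to 2866), and 0 and 0 for astrocytes (0 to 272 and 0 to 2410). For GABA neurons the medians were 28.9 and 37.7 (1.10 to 167 and 3.01 to 267), with a count in all 33 and 35 cells. For glutamate neurons they were 0 and 0 (0 to 119 and 0 to 760), with a count in 8 cells of each genotype. Summed over cells as the members were, the lists were lower in 3xTg, at log2 ratios of −3.55 for astrocytes (514 and 5567 counts), −1.57 for microglia (5124 and 14077), −1.63 for oligodendrocytes (3449 and 9921), −0.65 for GABA neurons (1067 and 1551) and −1.54 for glutamate neurons (550 and 1480). Few cells held much of some sums, with 32.9% of the astrocyte counts in 1 WT cell and 46.9% of the glutamate counts in another, and the glutamate list was at 0.21 in the first pair of runs and −4.01 in the second. Single genes differed in direction, C1qb, of complement in microglia, at −2.08 and C1qc at 1.82. The DA neuron list was at 0.35, with 0.16 and 0.53 in the pairs of runs. Of the astrocyte list, Aldh1l1 was at 0 in all cells, and of the endothelial list, Cldn5 and Pecam1 were. Libraries held 676602 to 1678655 counts in 3xTg, with a median of 1194544, and 492436 to 1327349 in WT, with a median of 982452. The part of these differences in the members' ratios was not tested beyond the cells and settings named.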

How the data were processed

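Reads of 100 bases had been trimmed by 5 bases at each end and aligned by the authors with Strand NGS 4.0 at 90% identity to RefSeq transcripts (mm10), and duplicates were removed. The deposited estimated counts per gene (expected counts, many not whole) were used. The log2 values that the authors deposited beside them, normalized with the DESeq2 algorithm, were not. Counts were rounded to whole numbers for sums, CPM, TMM factors and thinning; a cell had a gene at an unrounded count of 1 or more. Amplification took 28 PCR cycles, so intervals (exact at 95%) cover counting error only. A gene had to be counted in 34 of 68 cells, and "2-fold" is a log2 ratio of 1. A sum of 0 was set to 3 counts.

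The members and lists were chosen with earlier results of these data known. Named genes were Zfp382, the 6 highest and 6 lowest ratios whose shares went the same way, the 5 highest sums, the 5 in the most cells, those in 34 or 33 cells, members within 500 kb of Zfp382, and those of the lists with the highest sums. An item of the study and a gene that this rule names are not reported here. KRAB boxes were sought in translated GENCODE M21 coding sequences, where the plan had named RefSeq proteins. The calculation was tested on simulated data. Doublets were not called. Python 3.11.15 (numpy 2.4.6, pandas 2.3.3, scipy 1.17.1, matplotlib 3.10.9) and R 4.3.3 with edgeR 4.0.16 were used. Alternatives were the mean of cell CPM, DESeq2 size factors, TMM factors, thinned cells and cells without Pvalb, Tmem119, P2ry12 and Aldh1l1. Others were leaving out a gene's top cell in each genotype or its single top cell of all. Either pair of runs, other cell or count minimums and leaving out each cell were also used.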

Additional observations from a re-analysis of the deposited data

How the results depend on the processing

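The log2 ratio of all members summed, −0.17, was −0.19 as the mean of cell CPM, −0.13 with DESeq2 size factors and −0.18 with TMM factors. It was −0.14 in thinned cells, −0.15 in cells without Pvalb, Tmem119, P2ry12 and Aldh1l1, and −0.14 without the top cells. It reversed to 0.072 in the first pair of runs and was −0.39 in the second, −0.27 for members in at least 54 cells (70 genes) and −0.19 for those in at least 17 (247 genes). Leaving out 1 cell at a time gave −0.21 to −0.13. The members' median ratio, −0.23, reversed to 0.11 in the first pair of runs and was −0.36 in the second, where all genes had 0.13 and −0.16, and −0.28 to −0.16 with 1 cell left out. The 13 members higher by 2-fold became 25 in the first pair, 1 for members in at least 54 cells and 26 for those in at least 17, and 11 to 16 with 1 cell left out. Without the cell with the most counts of each gene, chosen after seeing the data, 8 members were higher and 7 lower. The 11 lower became 18 and 34 in the pairs of runs, 4 and 36 under these cell minimums, and 9 to 14 with 1 cell left out. The ratio of Zfp382 was −2.06 in cells without Pvalb, Tmem119, P2ry12 and Aldh1l1 and −2.65 in the first pair of runs, and −2.62 to −2.24 with 1 cell left out. Its share difference was −39.4 to −34.6 points with 1 cell left out. The members' median share difference was 6.44 points in the first pair, 3.55 with a minimum of 10 counts and 3.81 for members in at least 17 cells, and 0 to 2.77 with 1 cell left out. The 9 members past 2-fold in both pairs of runs became 6 without these cells. Under the settings not named the values stayed within their interval or, for counts, within 1.5 times. For the members' medians this interval ends at the values of single members. It describes the spread between genes instead of counting error. The cause of these changes was not tested. No paired analysis was possible because the labels name no mouse and the genotypes are separate lines. Depth limits shares near the detection minimum, and few counts limit members such as Zfp820 in WT.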
